A study of Mus musculus with 12 samples.

Results

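The genes described here are grouped as granule docking and fusion genes: Pclo, Rims2, Cplx2, Napa, Syt13 and Syt14. The 6 genes were not tested here for a role in insulin granule exocytosis. They were chosen by symbol, as every row of these 6 genes in the authors' list of differential m6A peaks, which gave 8 of 1233 peaks and 6 of 1108 genes. Pclo carried 3 peaks, numbered here along the chromosome, and each of the other genes carried 1. The knockout islets came from β-Mettl3-KO mice (Mettl3 flox/flox with RIP-Cre), in which Cre recombinase is driven by the rat insulin promoter and recombines Mettl3 in insulin-producing cells. The control islets came from Mettl3 flox/flox mice without Cre. Both groups were C57BL/6, 8 weeks old and on normal chow. RNA of 12 knockout and 9 control mice was pooled, with 3 replicates per genotype, called pools here, and each replicate number has an immunoprecipitated (IP) library and an input library. A pool therefore averages several mice, and the endocrine, endothelial and other islet cells without insulin keep their Mettl3.

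METTL3 is the catalytic subunit of the enzyme that writes N6-methyladenosine (m6A) on mRNA, typically near stop codons, in 3′UTRs and in long internal exons. In the assay, RNA fragments of about 100 nt are captured with an antibody against m6A, and the IP reads over a region are divided by the input reads over the same region. This enrichment depends on methylation and on antibody capture, while the input alone measures how much of the RNA region is present. Granule exocytosis needs scaffolds that hold granules near calcium channels, SNARE proteins that pull the membranes together, and factors that regulate or recycle the SNAREs, and β-cells share this machinery with nerve terminals.

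The 8 peaks fell into 3 kinds of position in the GENCODE M21 transcripts, all on GRCm38. The 3 Pclo peaks lay wholly in coding sequence, in exons 5 to 7 of 25, of which exon 5 is 5059 nt, exon 6 is 2018 nt and exon 7 is 2182 nt long. Peak 1 covered chromosome 5, 14676642 to 14678141, peak 2 covered 14679041 to 14682369 and peak 3 covered 14712458 to 14714227. Of the 3329 nt of peak 2, 2973 nt were exonic in the transcript used for annotation, and the rest was intronic in it. The peaks of Rims2 (chromosome 15, 39681081 to 39682576), Syt13 (chromosome 2, 92951411 to 92954208) and Syt14 (chromosome 1, 192896929 to 192901812, minus strand) spanned the stop codon, with 24.7%, 37.6% and 49.8% of their exonic bases in coding sequence. For Syt14, 753 of 810 nt were exonic in the transcript used. The peaks of Napa (chromosome 7, 16117439 to 16117975) and Cplx2 (chromosome 13, 54380602 to 54381170) lay wholly in the 3′UTR, with their middles 1142 and 1177 nt after the stop codon. In the authors' deposited table, the genomic centres of the Syt13 and Syt14 peaks were annotated as lying in the last intron, and each of these peaks covers parts of 2 exons on either side of it.

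METTL3 acts at DRACH, a 5-letter motif with A, G or T first, A or G second, then A and C, and A, C or T last, of which the third letter is methylated. All 8 peaks held DRACH on the RNA strand, 247 in total, and all 8 held GGAC, which begins some of these motifs, 33 times in total. DRACH density ran from 1.76 per 100 nt in Rims2 to 2.89 per 100 nt in Pclo peak 2, with a median of 2.36, equal to the 2.36 of the 1230 listed peaks assigned to a transcript. Of 731 listed peaks between 537 and 2973 nt, 100.0% held DRACH and 97.7% held GGAC, so presence alone did not set these peaks apart. On the opposite strand the median was 1.70 DRACH per 100 nt in the 8 peaks and 1.82 in all placed peaks. The assay does not say which adenosine carried the mark. To show what the candidate sites look like, the GGAC-type DRACH nearest the middle of the peak is printed for 7 of the 8 peaks, 5′ to 3′ with 10 nt on each side of its central A, in DNA letters from GENCODE M21, with the DRACH in capitals.

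Pclo peak 2, coding, plus strand, chr5:14680798-14680818: gagacaatGGACTctgttcct
Pclo peak 3, coding, plus strand, chr5:14713463-14713483: taccaaagGGACAgcagcttt
Rims2, coding, plus strand, chr15:39681733-39681753: gttctaccGGACCttcttact
Cplx2, 3′UTR, plus strand, chr13:54380939-54380959: ccccaggaGGACTcttcttgg
Napa, 3′UTR, plus strand, chr7:16117712-16117732: agacaggaGGACCcaaggtca
Syt13, 3′UTR, plus strand, chr2:92953696-92953716: tctttcttGGACAcagtcatc
Syt14, coding, minus strand, chr1:192897336-192897356: agtcgaagGGACAgcaagtgt

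The site shown for Syt14 lay 39 nt before and that for Syt13 39 nt after the last base of the stop codon, and that for Rims2 lay 21 nt before it. GGAC fell inside the middle 100 nt of 2 of the 8 peaks, those of Syt14 and Napa, and of 43.3% of all placed peaks, while DRACH of any kind fell there in 8 of 8 and in 92.9%.

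**Figure D1:**
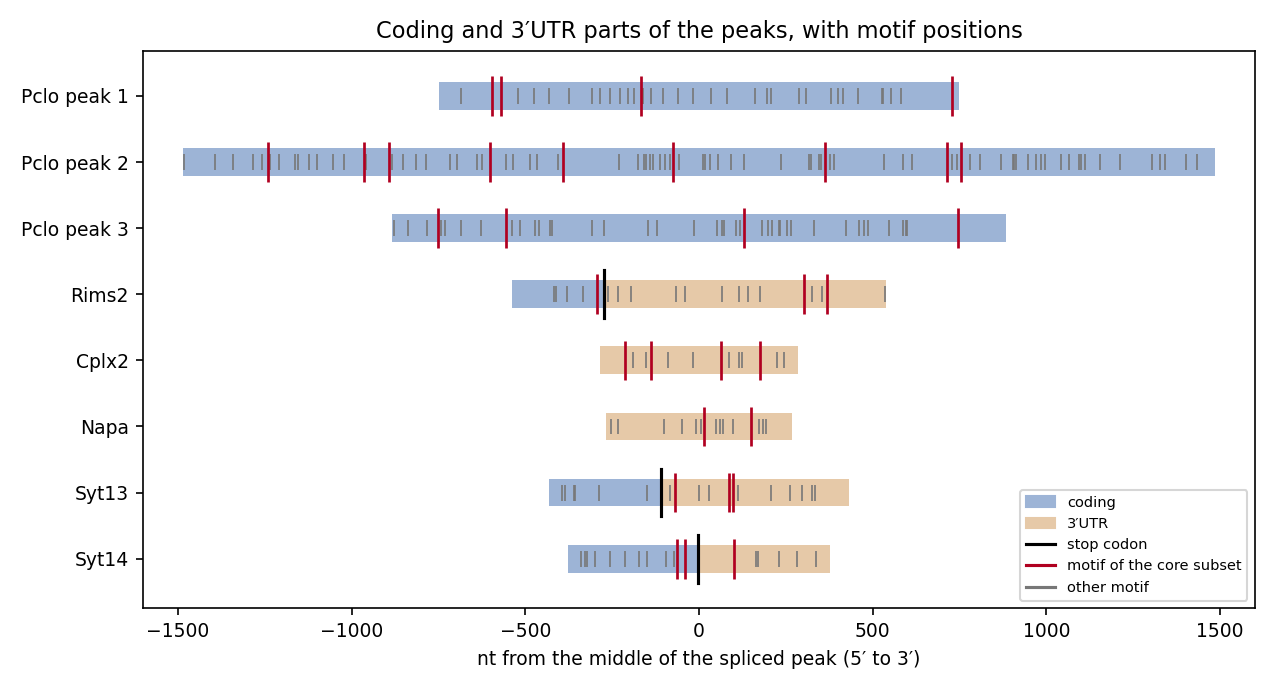
Each bar is 1 peak, drawn to scale as exonic nt from the middle of the peak, with coding sequence in blue, 3′UTR in brown and the stop codon as a black line. Short grey ticks are DRACH motifs, and long red ticks are the subset that begins with GGAC. The Pclo bars are wholly coding, those of Cplx2 and Napa wholly 3′UTR, and motifs are spread along all 8 peaks.

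Total reads per library ranged from 16832779 to 22257803. Over these peaks the IP libraries had counts of 245 to 23415 and the inputs 51 to 2984. Control pool 1 stood apart from the other controls in enrichment. The median over the 8 peaks was 5.16, 4.19 and 3.70 in knockout pools 1 to 3, and 5.18, 8.17 and 8.32 in control pools 1 to 3. Over all listed peaks the medians were 4.47, 3.44 and 3.42 in the knockout pools and 5.23, 8.09 and 9.27 in the control pools. IP and input libraries are paired here by the number in their titles, and nothing else in the labels says that equal numbers mark the same RNA pool. If they do not, a ratio given for 1 pool and the overlap of such ratios combine different pools, whereas the edgeR fit compares the 4 groups without using the pairing. Mettl3 was not analysed here, so the genotype labels were not checked at the targeted gene. Of 8 β-cell markers, 3 have a row in this table of differential peaks (Nkx6-1, Mafa and Ucn3), and of 6 α-cell, 2 PP-cell and 8 acinar markers none has. A marker without a row may still be expressed.

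The main comparison asks whether m6A enrichment at these peaks differs between knockout and control islets. With total reads as library size, enrichment was lower in knockout islets at all 8 peaks. By the authors' deposited log2 fold change it was lower at 92.9% of all listed peaks. Scaling on the listed peaks themselves put 5 of the 8 on the higher side. Under those scalings the median log2 change of all listed peaks was -0.07 to -0.04. With total reads, enrichment fell at 6 of the 8 by edgeR's quasi-likelihood test (adjusted p under 0.05 over 1233 peaks). The 6 were Syt14, Rims2, Napa, Cplx2 and Pclo peaks 1 and 2. Across all listed peaks 55.6% fell in this test and 2.27% rose, and the list had been selected by the authors for differential enrichment on these same libraries. The median log2 change was -0.89 over the 8 peaks and -1.02 over all listed peaks. For IP in the same fit of all libraries, 7 of the 8 fell, all but Rims2. Among all listed peaks 64.8% fell and 2.92% rose, and the median log2 IP change was -1.09 over the 8 and -0.76 over all. For input in that fit none of the 8 passed, in either direction. An unadjusted edgeR p under 0.05 was found for 1 of the 8, beside 233 of the 1233 listed peaks. Of all listed peaks 6% were called higher and 0.649% lower in input, and the median log2 input change was -0.27 over the 8 and 0.22 over all. With DESeq2 on total reads, 7 of the 8 fell in enrichment, beside 62.4% of all listed peaks, and 8 fell in IP, beside 68.9%. In input 0 of the 8 were called by it, beside 0.487% of all listed peaks lower and 6.41% higher. With the IP and input of equal number tied by a replicate block, 3 of the 8 fell in enrichment, beside 42.2% of all listed peaks. Syt14, Rims2 and Pclo peak 1 still passed, while Napa, Pclo peak 2 and Cplx2 did not (edgeR adjusted p = 0.0604, 0.0748 and 0.0802, in ranges over all settings of 0.00356 to 0.981, 0.00246 to 0.850 and 0.012 to 0.981).

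**Figure D2:**
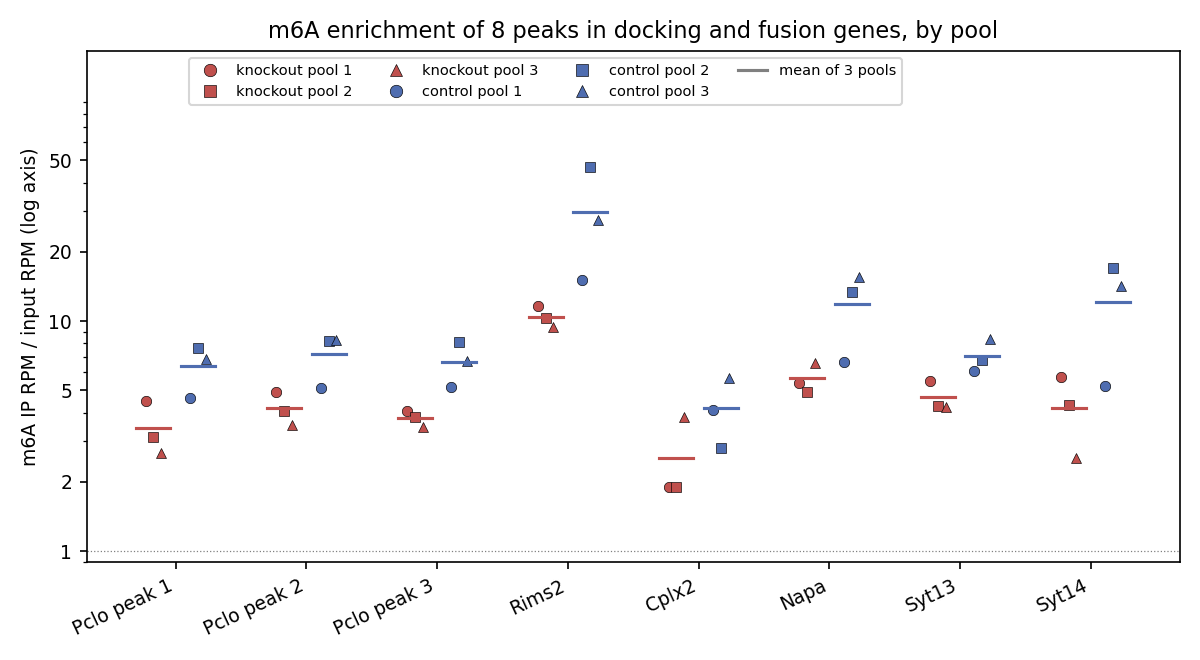
IP RPM divided by input RPM (RPM is the count scaled by the library's total reads) on a log axis for each peak, with 1 point per pool (circle, square and triangle for pools 1, 2 and 3), knockout in red left of control in blue, and the mean of 3 pools as a line. Rims2 is highest in every pool, and the control circle (pool 1) lies below the other 2 controls at all peaks but Cplx2.

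Pclo encodes Piccolo, a very large scaffold of the active zone that in β-cells also acts as a calcium sensor near the granule. Enrichment of peak 1 was 4.50, 3.14 and 2.66 in knockout pools 1 to 3, against 4.62, 7.66 and 6.86 in control pools 1 to 3. The groups do not overlap, but knockout pool 1 and control pool 1 are nearly equal. The log2 change was -0.95 ± 0.37 (SE, edgeR adjusted p = 0.0263). Peak 2 had 4.92, 4.09 and 3.55 in the knockout pools and 5.10, 8.20 and 8.25 in the control pools, a log2 change of -0.80 ± 0.36 (edgeR adjusted p = 0.0478). Peak 3 had 4.09, 3.84 and 3.47 in the knockout pools and 5.16, 8.15 and 6.72 in the control pools, a log2 change of -0.81 ± 0.37 that did not pass (edgeR adjusted p = 0.0506). The 3 peaks therefore gave changes within 1 standard error of each other. Peak 3 overlaps Gm26954, an antisense gene, and whether the counting used strand is not given in the sources used here, so its reads could come from either.

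The IP signal of Pclo fell at all 3 peaks. At peak 2 it was 293, 246 and 236 RPM in the knockout pools and 368, 646 and 626 RPM in the control pools (log2 change -1.08 ± 0.26, edgeR adjusted p = 0.000439). The log2 IP change was -1.20 at peak 1 (edgeR adjusted p = 0.000151) and -1.10 at peak 3 (edgeR adjusted p = 0.000468), and the groups did not overlap at any of the 3. Input was 59.4, 60.1 and 66.6 RPM in the knockout pools and 72.1, 78.8 and 75.8 RPM in the control pools at peak 2. At peak 3 it was 34.9, 34.7 and 35.2 RPM in the knockout pools and 43.8, 41.0 and 43.6 RPM in the control pools. Every knockout pool thus lay below every control pool at both peaks, as at 4.79% of all listed peaks, yet the log2 input changes of -0.28 and -0.29 did not pass (edgeR adjusted p = 0.571 and 0.570). They did pass with TMM on the listed peaks (log2 -0.49 and -0.50 at edgeR adjusted p = 0.0382 and 0.0393, within ranges over all settings of 0.000852 to 0.827 and 0.00479 to 0.818). Over the 12 libraries, centred within IP and within input, the 3 peaks varied together with Pearson's r of 0.954 to 0.972. They are regions of 1 transcript and share their libraries, and the difference between genotypes stays in these values. With 1 pool left out in turn, the adjusted p for enrichment ran from 0.000808 to 0.142 at peak 1, not passing without knockout pool 2 or 3 or control pool 2 or 3, and from 0.00246 to 0.166 at peak 2, passing only without control pool 1. Peak 3 passed without control pool 1 (edgeR adjusted p = 0.00312, range 0.00312 to 0.184) and with DESeq2 on total reads (adjusted p = 0.0159). It also passed narrowly with a filter of 10 reads in every library (edgeR adjusted p = 0.0486).

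Rims2 encodes RIM2, a scaffold that binds Rab3 on granules and the priming factor Munc13, and supports docking of insulin granules. It had the highest enrichment of the 8 peaks in 6 of 6 pools, and in the authors' deposited table its peak fold enrichment of 99.6 ranked 3 among all listed peaks. Enrichment was 11.6, 10.3 and 9.40 in knockout pools 1 to 3, against 15.1, 46.7 and 27.7 in control pools 1 to 3. The groups do not overlap, and the control pools lie much farther apart than the knockout pools. The means were 10.4 ± 1.11 in knockout and 29.8 ± 15.9 in control pools (SD, n = 3 each), a log2 change of -1.40 ± 0.41 (edgeR adjusted p = 0.00691).

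The Rims2 IP signal did not pass on its own. It was 75.8, 64.6 and 57.0 RPM in the knockout pools and 61.7, 123 and 108 RPM in the control pools, where control pool 1 lies among the knockouts (log2 change -0.57 ± 0.28, edgeR adjusted p = 0.0576). Input was 6.54, 6.26 and 6.07 RPM in the knockout pools, against 4.09, 2.63 and 3.92 RPM in the control pools. All 3 knockout pools lay above all 3 controls, as at 21.9% of the listed peaks, with a log2 change of 0.83 ± 0.30 (edgeR adjusted p = 0.0778, unadjusted 0.00663). The call on enrichment therefore combines a lower IP and a higher input, neither of which passed alone. The control input counts were 77, 51 and 66 and the knockout counts 123, 131 and 111, the thinnest basis of these peaks beside Napa. With 1 pool left out, the enrichment call was lost without knockout pool 2 or 3 or control pool 2 (edgeR adjusted p 4e-05 to 0.0865). Without control pool 1, both IP and input passed (edgeR adjusted p = 0.000976, range 0.000976 to 0.293, and 0.0139, range 0.0139 to 0.372).

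**Figure D3:**
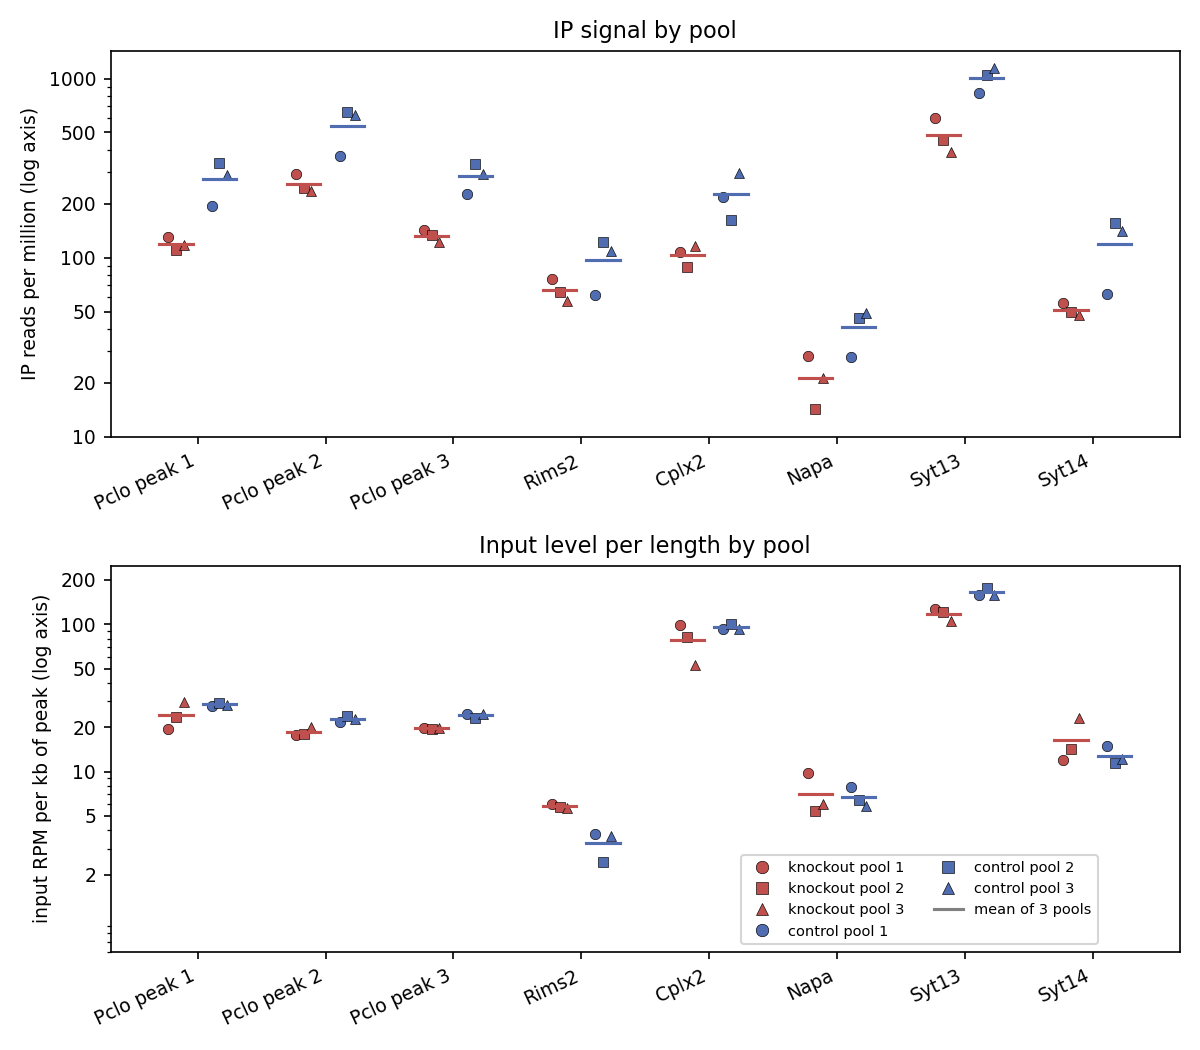
IP RPM (top) and input RPM per kb of peak (bottom), both on log axes, with 1 point per pool, knockout in red left of control in blue, and means as lines. IP is lower in knockout pools at most peaks, while input is higher in all knockout pools for Rims2 and lower in all of them for Syt13 and Pclo peaks 2 and 3.

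Cplx2 encodes complexin 2, a small protein that binds the assembled SNARE complex and both clamps and facilitates fusion. Its 3′UTR peak had the lowest enrichment of the 8 in 5 of 6 pools. Enrichment was 1.91, 1.90 and 3.85 in knockout pools 1 to 3, against 4.13, 2.82 and 5.65 in control pools 1 to 3. Knockout pool 3 lies above control pool 2, so the groups overlap, and the log2 change was -0.83 ± 0.37 (edgeR adjusted p = 0.0457). IP was 108, 89.0 and 116 RPM in the knockout pools and 217, 162 and 297 RPM in the control pools, with no overlap (log2 change -1.11 ± 0.26, edgeR adjusted p = 0.000434). Input was 56.4, 46.9 and 30.1 RPM in the knockout pools and 52.6, 57.4 and 52.6 RPM in the control pools (log2 change -0.29 ± 0.26, edgeR adjusted p = 0.581). The high enrichment of knockout pool 3 coincides with its low input, 550 reads, while its IP count of 2083 was the highest of the knockout pools. The enrichment call held without control pool 1 and was lost without any other pool (edgeR adjusted p 0.012 to 0.249).

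Napa encodes α-SNAP, the adaptor that brings the ATPase NSF to used SNARE complexes so that they can be taken apart. Enrichment at its 3′UTR peak was 5.40, 4.92 and 6.59 in knockout pools 1 to 3, against 6.63, 13.4 and 15.6 in control pools 1 to 3. The groups touch at knockout pool 3 and control pool 1 without overlapping (log2 change -1.02 ± 0.44, edgeR adjusted p = 0.0403). IP fell to 28.4, 14.3 and 21.3 RPM in the knockout pools, against 27.8, 46.2 and 49.0 RPM in the control pools (log2 change -0.94 ± 0.30, edgeR adjusted p = 0.00653), with knockout pool 1 just above control pool 1. Input was 5.26, 2.91 and 3.23 RPM in the knockout pools and 4.20, 3.45 and 3.15 RPM in the control pools, which did not separate (log2 change 0.08 ± 0.33, edgeR adjusted p = 0.929). These input values rest on 53 to 99 reads per library. The enrichment call held without control pool 1 and was lost without any other pool (edgeR adjusted p 0.00356 to 0.183), and the IP call was lost without knockout pool 2 or control pool 3 (edgeR adjusted p 0.000133 to 0.106).

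Syt13 and Syt14 encode synaptotagmins, a family best known for calcium sensors of fusion, but both are atypical members that do not bind calcium through their C2 domains. Syt13 gave the strongest IP signal of the 8 peaks. It was 603, 454 and 389 RPM in knockout pools 1 to 3, against 835, 1046 and 1148 RPM in control pools 1 to 3, well apart (log2 change -1.07 ± 0.25, edgeR adjusted p = 0.000411). Its input was also lower in every knockout pool, 109, 106 and 91.8 RPM, against 138, 154 and 137 RPM in the control pools. That log2 input change of -0.48 ± 0.25 did not pass in the fit of all libraries (edgeR adjusted p = 0.274, unadjusted 0.0557). It passed under the 3 scalings on the listed peaks and with the input libraries fitted alone (for the libraries alone edgeR adjusted p = 0.0345, within a range over all settings of 5.7e-05 to 0.628). Enrichment, the ratio of both, was 5.51, 4.29 and 4.23 in the knockout pools and 6.07, 6.81 and 8.40 in the control pools. No pools overlap, but the log2 change of -0.59 ± 0.35 did not pass (edgeR adjusted p = 0.116), except without control pool 1 (edgeR adjusted p = 0.0301, range 0.0301 to 0.319).

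Syt14 had the largest fall in enrichment of the 8. Enrichment was 5.73, 4.34 and 2.54 in knockout pools 1 to 3, against 5.20, 17.0 and 14.2 in control pools 1 to 3. Control pool 1 lies below knockout pool 1, so the groups overlap despite a log2 change of -1.59 ± 0.40 (edgeR adjusted p = 0.00213). The IP signal was 56.0, 49.8 and 47.6 RPM in the knockout pools and 62.8, 157 and 140 RPM in the control pools, without overlap (log2 change -1.23 ± 0.28, edgeR adjusted p = 0.000233). Input was 9.78, 11.5 and 18.7 RPM in the knockout pools and 12.1, 9.22 and 9.86 RPM in the control pools (log2 change 0.36 ± 0.28, edgeR adjusted p = 0.516), with knockout pool 3 the highest. Without knockout pool 3 the enrichment change was -1.21 and did not pass (edgeR adjusted p = 0.0659, range 1.33e-06 to 0.0659), and it passed without any other single pool.

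**Figure D4:**
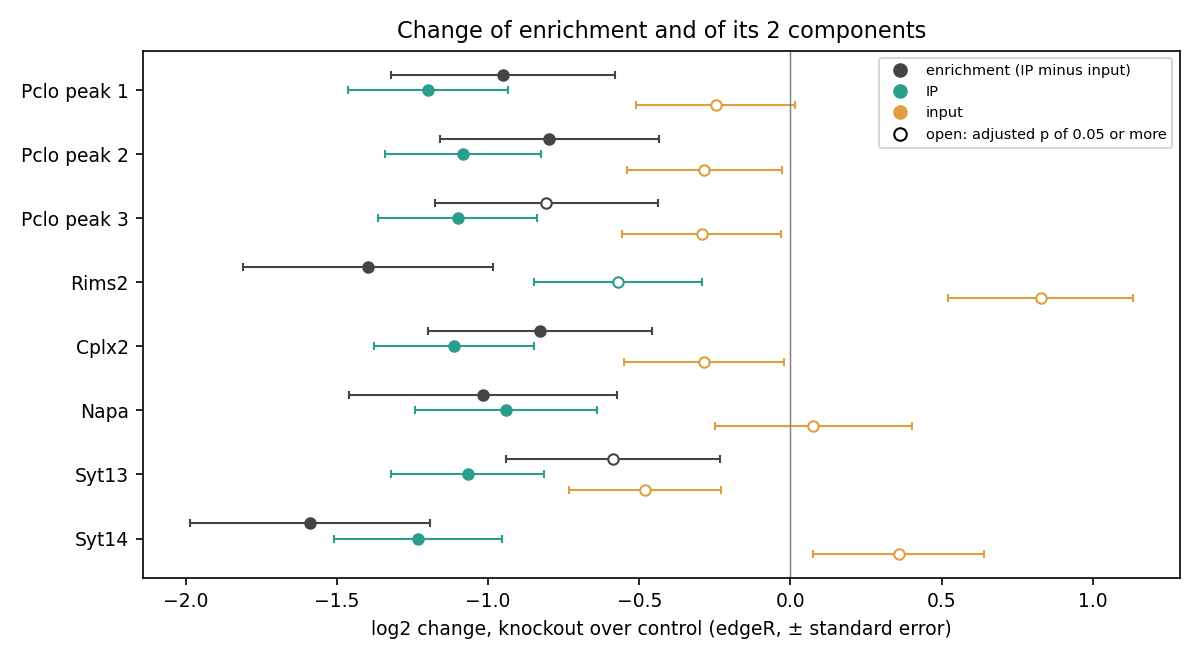
Log2 change, knockout over control, with its standard error from edgeR, for enrichment (dark), IP (green) and input (orange) at each peak. Filled points have an adjusted p under 0.05. The IP changes of 7 peaks lie between -1.23 and -0.94 and that of Rims2 at -0.57, while the input changes run from -0.48 for Syt13 to 0.83 for Rims2.

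Set side by side, the IP changes of the 8 peaks covered a narrower range than the input changes, -1.23 to -0.57 against -0.48 to 0.83 on the log2 scale. Enrichment fell most at Syt14 and Rims2, whose input changes were above 0, and changed least at Syt13, whose input change was the lowest. The log2 enrichment change is the IP change minus the input change, so a relation to input is built into it. Differences between genes were not tested. Even so, every knockout pool kept IP above input at every one of these peaks, with the lowest ratio at 1.90 for Cplx2. Enrichment was lower in all knockout pools than in all control pools at 6 of the 8 peaks, as it was at 53.5% of the listed peaks. IP was so at 6 of 8, against 46.4%. The opposite order, all knockout pools above all controls, occurred at none of the 8 in enrichment or IP and at 3% and 3.89% of the listed peaks.

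The counts depended on the pools and on the scaling. Without control pool 1, which had the lowest control enrichment, all 8 peaks fell, as did 79.2% of the listed peaks. Without knockout pool 1, 2 or 3 the number of falls was 3, 1 and 0, beside 51.7%, 7.38% and 9% of the listed peaks. Without control pool 2 or 3 it was 1 and 2, beside 13.6% and 11.4%. IP falls numbered 6 to 8 in each of these fits, beside 19.9% to 84.1% of all listed peaks, lowest without knockout pool 2 and highest without control pool 1. TMM factors computed on the listed peaks, most of which were selected as lower, moved the median log2 enrichment change of all listed peaks to -0.07, with 9 falls and 39 rises in place of 686 and 28. Under it none of the 8 was called and the direction turned for Syt13, Cplx2 and the 3 Pclo peaks (log2 changes of 0.011 to 0.32), with Syt14 at -0.58, Rims2 at -0.42 and Napa at -0.07. No IP fall was called under it either, with IP changes of -0.45 to -0.20 at 7 peaks and 0.20 at Rims2. Whether total reads or the listed peaks are the better scale cannot be settled from this table, which holds differential peaks alone.

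**Figure D5:**
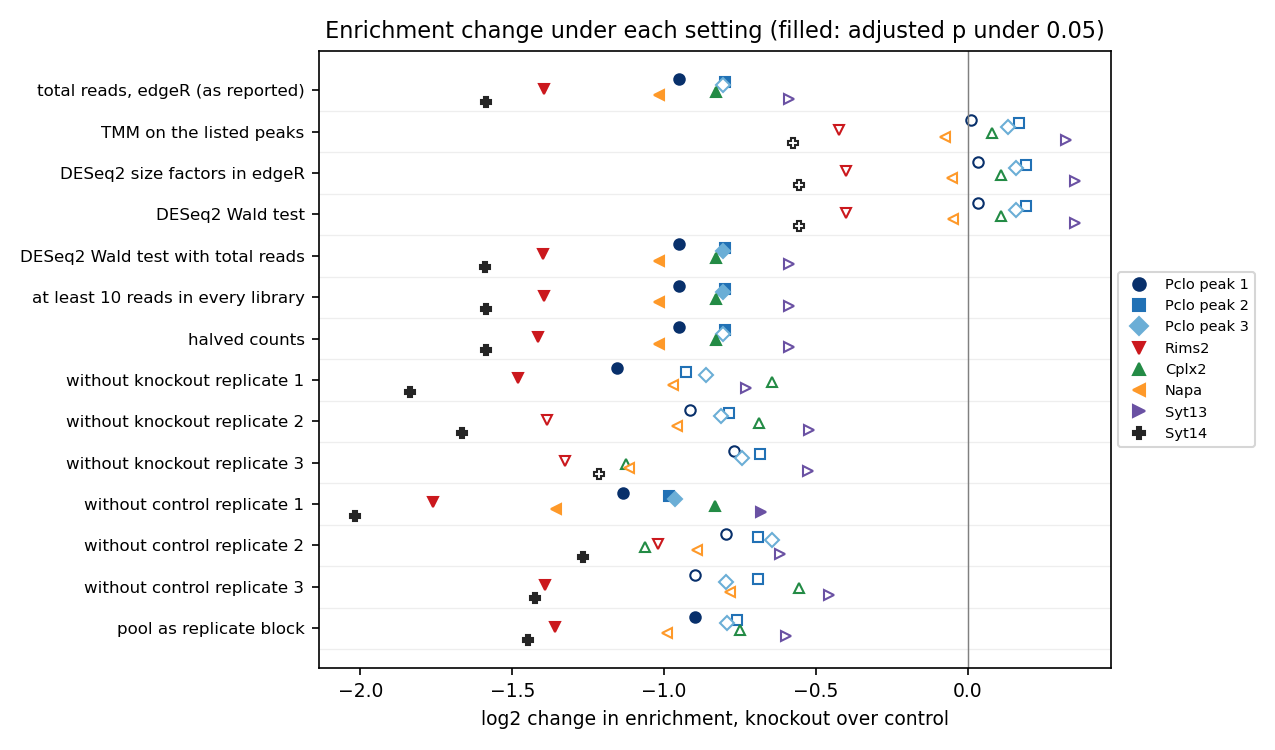
Log2 change in enrichment, knockout over control, of each peak under every setting, with filled symbols where the adjusted p is under 0.05. With total reads all values lie below 0, and the 3 settings that scale on the listed peaks move 5 of the 8 to the right of 0 and leave none filled.

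The input level per length gives the order of abundance of these RNA regions. Mean input, as RPM per kb of peak, was 118 ± 10.7 in knockout and 165 ± 11.1 in control pools for Syt13, and 78.1 ± 23.4 in knockout and 95.2 ± 4.91 in control pools for Cplx2 (SD, n = 3 each). The 3 Pclo peaks followed, with means of 18.6 to 24.1 in knockout and 22.7 to 28.6 in control pools, and they did not separate beyond their spread in knockout pools. Syt14 had 16.4 ± 5.85 in knockout and 12.8 ± 1.84 in control pools, and its knockout pools overlapped those of the Pclo peaks. Napa had 7.08 ± 2.37 in knockout and 6.70 ± 1.01 in control pools. Rims2 was lowest in control pools, at 5.83 ± 0.218 in knockout and 3.29 ± 0.742 in control pools, and in knockout pools it lay within the spread of Napa. Rims2, with the highest enrichment, was the least abundant of the 8 in control islets, and Cplx2, with the lowest mean enrichment, was the second most abundant. Input is the divisor of enrichment, so the order of abundance and the order of enrichment are not independent. Syt13, the most abundant, was not lowest in enrichment, with a control mean of 7.09 against 4.20 for Cplx2. In whole islets, fewer cells of a type and less RNA per cell cannot be told apart. The summed input of the 3 β-cell markers in the table ran from 158 to 220 RPM in knockout and 363 to 420 RPM in control pools. That of the 4 endothelial markers (of 6) ran from 42.4 to 84.2 RPM in knockout and 77.8 to 84.6 RPM in control pools. The sums for δ-cell (1 of 4), ductal (1 of 6), stromal (2 of 7) and immune markers (1 of 6) also overlapped between genotypes, as did the endothelial sum. Each sum, that of the β-cell markers included, rests only on markers with a row in this list of differential peaks. The part of these markers in the input values above was not tested.

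A wider list of 123 symbols of SNAREs, synaptotagmins, Rab effectors, exocyst and active zone proteins held 5 further genes with a row in the table, with 6 peaks. Of these 6, 2 fell and 1 rose in enrichment by edgeR, beside 55.6% and 2.27% of all listed peaks. Rimbp2, whose product links RIM to calcium channels, had a peak, in the 3′UTR by the authors' deposited table, with enrichment of 1.72, 1.12 and 1.04 in knockout pools and 2.91, 3.73 and 4.64 in control pools (log2 change -1.56, edgeR adjusted p = 0.0036), and a second peak with a log2 change of -0.72 (edgeR adjusted p = 0.0748). The enrichment of Exph5, a Rab27 effector, fell as well (log2 change -0.95, edgeR adjusted p = 0.0268), though the groups overlap. Its control pool 1, at 6.98, lies below knockout pools 1 and 2, at 8.13 and 7.35. The exocyst gene Exoc6b and the Rab effector gene Rph3al did not pass (edgeR adjusted p = 0.0640 at a log2 change of -0.80 for Exoc6b, and 0.0584 at -1.14 for Rph3al). Stx16, a SNARE of the trans-Golgi network and endosomes, rose in enrichment (log2 change 1.60, edgeR adjusted p = 0.0167), at a region whose centre the authors' deposited table calls intergenic and with input counts of 15 to 51. Enrichment at Stx16 ran from 7.98 to 19.4 in the knockout pools and from 1.83 to 8.75 in the control pools, where pool 1 was highest, so control pool 1 lies among the knockouts there too. In IP, 3 of the 6 peaks fell, those of Exph5, Exoc6b and Rimbp2 in the 3′UTR, beside 64.8% of all listed peaks. In input none of the 6 passed edgeR's test, beside 0.649% of all listed peaks called lower and 6% higher. Unadjusted edgeR p-values under 0.05 were 0.00634 for that Rimbp2 peak and 0.0264 for Stx16, beside 233 of the 1233 listed peaks under 0.05. The log2 input change was 0.82 at that Rimbp2 peak and -0.94 at Stx16, so input adds to both enrichment changes. The log2 IP change was -0.75 at the Rimbp2 peak (edgeR adjusted p = 0.0233). At Stx16 it was 0.66 and did not pass (edgeR adjusted p = 0.0952).

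For each gene the other listed gene of most similar pattern was found from log2 RPM over the 12 libraries, centred within IP and within input, among 1120 peaks with a mean count of at least 100. It was Atp2a2 for Pclo peak 2 (Pearson's r = 0.984), Slc35b4 for Syt13 (0.984), Tulp4 for Syt14 (0.976), Usp47 for Rims2 (0.962), Scaf1 for Cplx2 (0.958) and Kti12 for Napa (0.937). Each of these values is the highest among the compared peaks, which all share the same libraries. The centring leaves in the difference between genotypes, for which the list was selected. The median r of each gene with all compared peaks ran from 0.449 for Cplx2 to 0.710 for Syt14. Among the peaks described here other than the Pclo pairs, r ran from 0.125 between Cplx2 and Rims2 to 0.941 between Syt13 and Pclo peak 3.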

How the data were processed

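Per the file headers, the authors deposited a read count per peak and library and the total reads per library. The deposited RPM values equal count over total to 0.0005. The authors' log2 fold change, fold enrichment (a ratio) and log10 FDR (read as a score) were used only where credited. Per the submitters' processing notes, fastp 0.19.11, BWA 0.7.12, HOMER 4.9.1 and GRCm38.p6 were used. The sources used here name no peak caller, threshold or strand setting. The 6 deposited per-pool enrichment columns were left out.

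Counts of all 1233 peaks were fitted with edgeR 4.0.16 (R 4.3.3, quasi-likelihood, 4 groups, deposited totals as library sizes, no filter), with Benjamini-Hochberg adjustment over all peaks and a threshold of 0.05. Standard errors are the log2 change divided by the square root of the F statistic. Alternatives used DESeq2 1.42.0. The procedure was tested on simulated data in which most peaks were unchanged and the library totals were kept. That test does not bear on the choice of scale. Peaks were placed in the GENCODE M21 coding transcript holding most of their bases. Python 3.11.15 was used. Of 1108 genes, 1105 matched a symbol. All rows of the 6 genes, all rows of the wider list and the most similar gene were named by rule. The genes, lists and tests were chosen with earlier results of these data known, and the table was selected by the authors on these libraries, so the tests are not independent evidence. The p-values measure the spread between 3 pools per genotype. The sequence of 1 candidate site is not reported here.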

Additional observations from a re-analysis of the deposited data

How the results depend on the processing

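With total reads as library size, all 8 enrichment and IP changes kept their sign in every fit run. The number of the 8 peaks with a fall in enrichment, 6 as reported, was 0 with TMM or DESeq2 size factors on the listed peaks in edgeR and 0 with DESeq2's own Wald test, 3 with the pool as a replicate block (all listed peaks: 0.73%, 0.73%, 1.38% and 42.2%), and 0 to 8 with 1 pool left out. The number with a fall in IP, 7 as reported, was 0, 0 and 2 under those 3 scalings, 0 with the replicate number as a replicate block (all listed peaks: 2.19%, 2.19%, 3.81% and 1.87%) and 6 to 8 with 1 pool left out. The number lower in input, 0 as reported, was 3, 3 and 4 under the 3 scalings, 1 with the input libraries alone and 1 with the replicate block (all listed peaks: 2.6%, 3.41%, 5.35%, 1.54% and 1.22%). The number higher in input was 0 to 1 with 1 pool left out, beside 2.51% to 9.65% of all listed peaks. The 1 was Rims2 without control pool 1, where that share was 9.65%. Signs turned as follows under TMM, DESeq2 size factors and the Wald test. Enrichment changed by 0.32, 0.35 and 0.35 for Syt13, 0.079, 0.11 and 0.11 for Cplx2, 0.011, 0.034 and 0.034 for Pclo peak 1, 0.17, 0.19 and 0.19 for peak 2, and 0.13, 0.16 and 0.16 for peak 3. IP changed by 0.20, 0.18 and 0.18 for Rims2, and input by -0.13, -0.16 and -0.16 for Napa, whose input change was also -0.23 without knockout pool 1 and -0.01 without control pool 3, in a range of -0.23 to 0.24 with 1 pool left out. These scalings set the median change of the listed peaks near 0 by construction. Same-numbered libraries did not deviate together: r ran from -0.071 to 0.064 between IP and input of 1 genotype, where 2 of 6 IP libraries correlated best with their own number, and from -0.328 to 0.099 between genotypes in IP and -0.080 to -0.013 in input. A filter of 10 reads in every library, halved counts and the IP libraries alone left all these counts within 1.5 times of those reported. No rows share coordinates, so merging them was not run. Depth limits Napa and Rims2 most, by their input counts. The DESeq2 fit on total reads was chosen after seeing the data.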
